A study of Mus musculus with 8 samples.

Results

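The proteasome subunit genes described here are the protein-coding genes whose symbol in the GENCODE M21 mouse annotation begins with Psm, a letter from a to g and a digit. The rule used names alone and no measured value. It found 50 of the 48440 genes listed in the count tables, and 49 of them passed the filter on low counts, the exception being Psmb11. Of the 50 genes, 14 encode the constitutive subunits of the core particle, 17 encode constitutive subunits of the regulatory particle, and 5 encode alternative core subunits. A further 7 encode assembly chaperones and 5 encode activators or an inhibitor of the core. The remaining 2, Psmc3ip and Psme2b, match the name pattern and were placed in no proteasome group used here.

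The proteasome is the protease that degrades proteins tagged with ubiquitin. Its core particle is a barrel of stacked rings of alpha subunits (Psma genes) and beta subunits (Psmb genes), with the active sites on the inner face of certain beta subunits. The regulatory particle caps the barrel: its base holds the ATPases (Psmc genes) that unfold substrates, and its lid holds the subunit that removes ubiquitin chains. Subunits enter the complex in fixed proportions, and their genes are known as a set under a shared transcription factor, Nfe2l1. Pluripotent stem cells are known for high proteasome activity.

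The libraries were polyA RNA-seq of mouse embryonic stem cells of the MK6 line, derived from C57BL/6J mice, taken after 1 day of differentiation in vitro. There were 4 genotypes at the Tbxt locus, with 2 libraries each: wild-type (labelled WT), Tbxt Δexon6/Δexon6 (labelled delE6/delE6, both alleles lacking exon 6), Tbxt Δexon6/+ (labelled delE6/+, 1 allele lacking it) and Tbxt insASAY/insASAY (labelled Insert ASAY, both alleles carrying human AluY and AluSx1 elements in the introns that flank exon 6). Tbxt encodes the mesoderm transcription factor brachyury, and the genotypes were compared to ask how the exon 6-skipped form acts. All edited lines were made with CRISPR from the same parent line, but by different routes. Per the study's methods, exon 6 was deleted in cells grown without feeders. The Alu pair was inserted in cells grown on feeders, with a selection marker that was later removed with Cre recombinase. The methods give 1 route for both deletion genotypes. In every comparison with wild-type or insASAY/insASAY, genotype and editing route cannot be told apart. The study's methods call the libraries of each genotype biological replicates and state that the Δexon6/Δexon6 pair came from different clones. Whether the other pairs came from separate clones is not given in the sources used here, and there genotype and clone cannot be told apart.

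Reads assigned to genes numbered 24618587 to 28445952 per library. Levels are given as CPM, a gene's reads scaled to a library of fixed size and corrected for library composition. In bulk RNA fewer cells of a type and less RNA per cell cannot be told apart. Tbxt itself, listed under the symbol T, stood at 1.70 and 1.56 CPM in wild-type, 1.05 and 0.81 in Δexon6/Δexon6, 1.48 and 2.21 in Δexon6/+ and 1.09 and 1.06 in insASAY/insASAY, a gene-level sum that cannot show the loss of 1 exon. The ES cell markers Pou5f1, Sox2 and Nanog were present in all 8 libraries. The summed level of the 8 markers listed was 1139 to 1182 CPM in wild-type and 556 to 799 CPM in the mutant libraries. Dppa5a held much of it, at a mean of 544 CPM in wild-type and 182 to 270 CPM in the mutant genotypes. At the threshold given below, 4 of the 8 fell in Δexon6/Δexon6, and 1 rose and 6 fell in Δexon6/+ and likewise in insASAY/insASAY. Sox2 rose in Δexon6/+ (0.72 on the log2 scale) and Zfp42 in insASAY/insASAY (0.45). Sox2 lies on chromosome 3, whose tested genes had a median change of 0.32 in Δexon6/+, as described below. The part of that chromosome-wide shift in the Sox2 change was not tested. The part of the ES cell markers in the results below was not tested. Feeder fibroblast markers summed to 12.8 to 25.9 CPM, with Postn and Lum at or below 0.223 CPM. Of the 5 tested, 2 fell in Δexon6/Δexon6, 2 rose and 1 fell in Δexon6/+ and 4 fell in insASAY/insASAY. Col3a1, at 2 to 18 reads per library, was among those that fell in each genotype. The calls of Col1a2, Col3a1, Thy1 and Dcn hung on single libraries. Of all tested genes, 18.3% rose and 17.1% fell in Δexon6/Δexon6, 15.4% and 16.2% in Δexon6/+ and 23.2% and 24.1% in insASAY/insASAY.

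Taken as a sum, proteasome transcripts took a somewhat larger share of reads in every mutant library than in wild-type. All 50 genes together held 0.689% of reads in both wild-type libraries, and from 0.696% to 0.742% in the 6 mutant libraries. The 14 core particle genes summed to 2597 and 2556 CPM in wild-type, 2525 and 2521 in Δexon6/Δexon6, 2519 and 2609 in Δexon6/+ and 2558 and 2571 in insASAY/insASAY. The Δexon6/+ and insASAY/insASAY libraries overlapped the wild-type pair, and the Δexon6/Δexon6 libraries lay just below it. The 17 regulatory particle genes summed to 3417 and 3443 CPM in wild-type, 3459 and 3553 in Δexon6/Δexon6, 3352 and 3422 in Δexon6/+ and 3459 and 3489 in insASAY/insASAY. Here both homozygous genotypes lay above wild-type and the heterozygous libraries overlapped it.

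Levels differed between subunits of the same particle far more than between genotypes. Per kb of the principal transcript, the core genes in wild-type ran from 57.9 ± 0.15 (SD, n = 2) for Psma2 to 302 ± 0.79 CPM per kb for Psmb6, a 5.22-fold span. The regulatory genes ran from 61.6 ± 0.31 CPM per kb for Psmd6 to 208 ± 0.64 for Psmd2, a 3.37-fold span. Psmd2 and Psmd8 stood at 208 and 201 CPM per kb, above Psmd4 at 139, while the lowest pair, Psmd6 and Psmc2 at 63.3, lay close together. The order depended on the length used. Divided by coding length, the core span was 2.48-fold with Psmb7 highest and Psmb5 lowest, since the principal transcript of Psma2 is 2911 bases for 702 coding bases. The regulatory span was then 3.99-fold. Psma2 also overlaps another gene on its strand in the annotation. Reads that fit both genes are set aside as ambiguous and counted for neither, so its level may be understated.

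**Figure D1:**
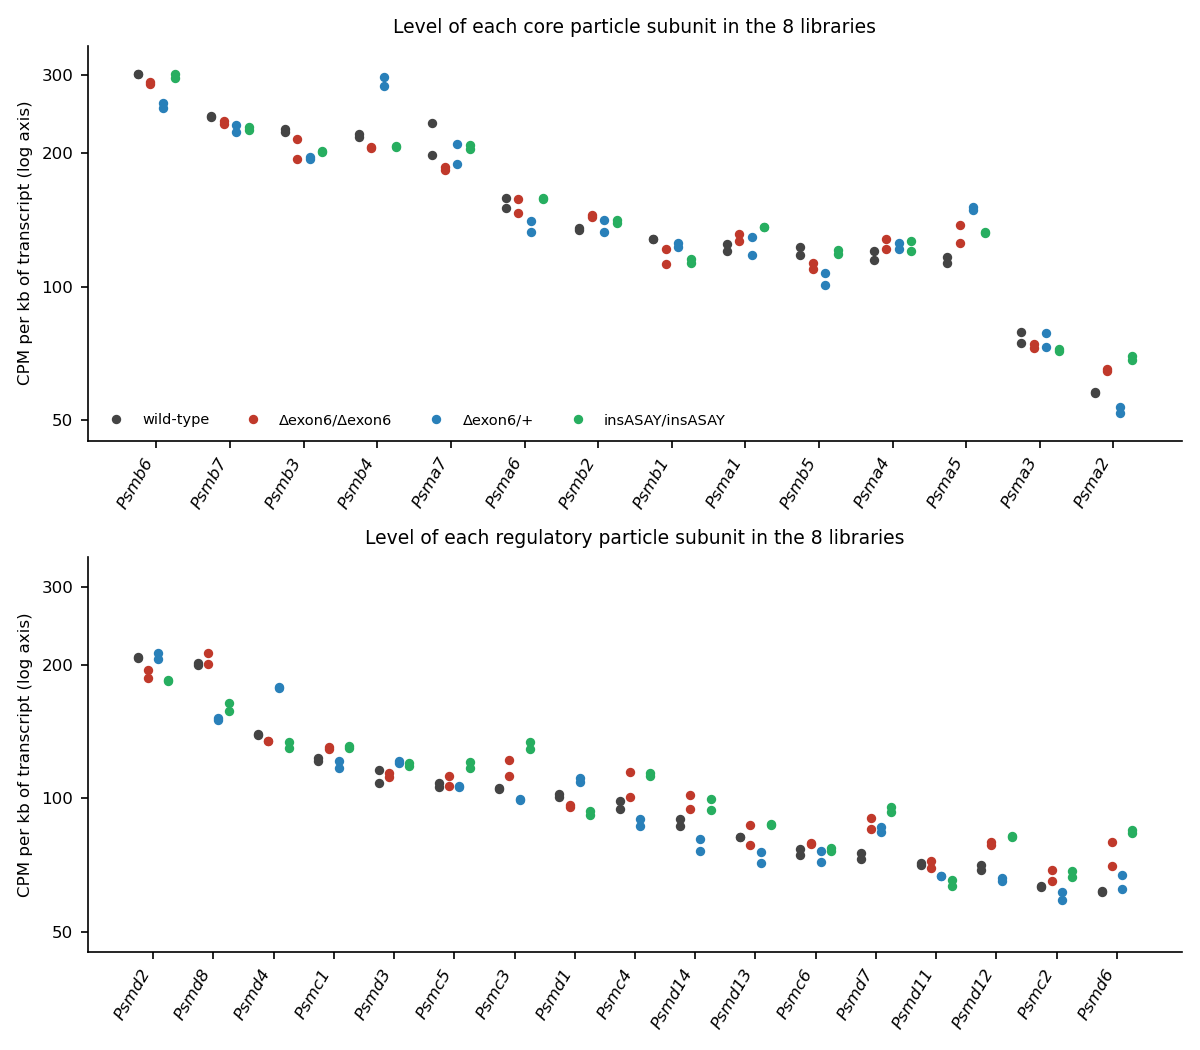
Level of each constitutive core particle gene (top) and regulatory particle gene (bottom), in CPM per kb of transcript on a log axis, with 1 point per library and colour for the genotype. Subunits are ordered by their wild-type mean, from Psmb6 (302) to Psma2 (57.9) and from Psmd2 (208) to Psmd6 (61.6), and the 8 points of a gene lie close together beside the distance between genes.

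Libraries of a genotype were close to each other for these genes. The median difference between the 2 libraries over the 31 constitutive genes was 0.02 on the log2 scale in wild-type, 0.05 in Δexon6/Δexon6, 0.05 in Δexon6/+ and 0.03 in insASAY/insASAY. The largest single difference was 0.24, for Psma7 in wild-type. The Δexon6/Δexon6 libraries stood further apart than the others: over 49 members, the chi-square per degree of freedom between replicates was 6.84 there and 1.17 to 3.23 elsewhere, where 1 is counting noise alone.

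Changes against wild-type were frequent and small. A change was called at an adjusted p below 0.05 in edgeR's quasi-likelihood test with Benjamini-Hochberg adjustment over the 17049 genes tested, and every adjusted p below comes from that test unless another is named. In Δexon6/Δexon6, 10 members rose and 4 fell, where 18.3% of all tested genes rose and 17.1% fell. In Δexon6/+, 6 rose and 11 fell, against 15.4% and 16.2% of all genes. In insASAY/insASAY, 12 rose and 8 fell, against 23.2% and 24.1% of all genes. The shares of members called, at most 20 of 49, were near or below those of all genes (35.4%, 31.6% and 47.3% in either direction). Calls were more frequent among the 2025 other genes in the abundance range of the constitutive subunits, of which 26.5% rose and 25.04% fell in Δexon6/Δexon6, 23.9% and 25.04% in Δexon6/+ and 23.4% and 41.2% in insASAY/insASAY. The 3 comparisons share the wild-type libraries. Over them 16 members were called in none, 18 in 1, 12 in 2 and 3 in all 3. The same tally was not made over all tested genes, so these counts have no background beside them.

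The sizes of change were modest. None of the 31 constitutive core and regulatory genes moved by more than 0.5 on the log2 scale with an adjusted p below 0.05 in any of the 6 comparisons between genotypes, where 12.7% of all tested genes did so in Δexon6/Δexon6 against wild-type, 13.5% in Δexon6/+ and 21.3% in insASAY/insASAY. The largest change of a constitutive gene against wild-type was 0.28 in Δexon6/Δexon6, 0.41 in Δexon6/+ and 0.45 in insASAY/insASAY. The median absolute change over the 31 was 0.08, 0.11 and 0.13, and over all tested genes 0.23, 0.21 and 0.29. Part of that gap goes with abundance: among the 2025 other genes within the same range of mean level, 99.0 to 586 CPM, the median was 0.14, 0.14 and 0.18, and 4.74%, 7.65% and 10.9% moved by over 0.5 with an adjusted p below 0.05. Psmb4 crossed 0.5 when Δexon6/+ replicate 1 was left out, at 0.53 in Δexon6/+ against Δexon6/Δexon6 and by 0.52 between insASAY/insASAY and Δexon6/+, and Psmb4 and Psmd4 did so with GC and length offsets in insASAY/insASAY against Δexon6/+.

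**Figure D2:**
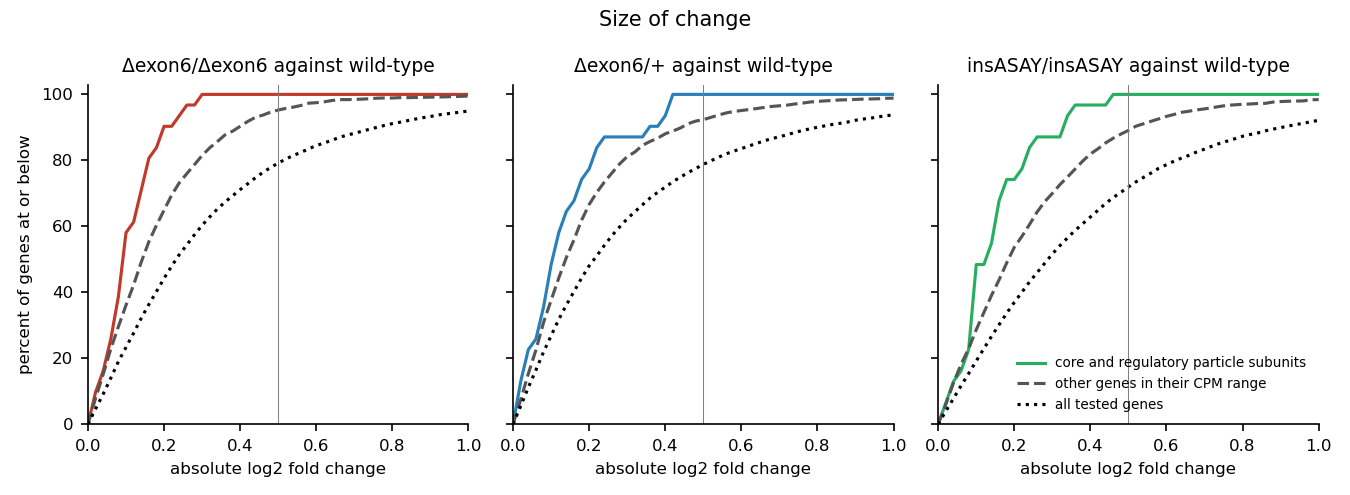
Percent of genes (vertical axis) whose absolute log2 fold change against wild-type is at or below the value on the horizontal axis, for the 31 constitutive subunit genes (solid), 2025 other genes in the same CPM range (dashed) and all 17049 tested genes (dotted), 1 panel per mutant genotype. In each panel the solid line reaches 100 percent before 0.5, the grey vertical line.

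Many of the calls hung on single libraries. Leaving out each of the 8 libraries in turn, the count in Δexon6/Δexon6 went from 14 to 4 without wild-type replicate 1 and 7 without wild-type replicate 2, and 3 of the 14 calls held in every leave-out. In Δexon6/+ the count went from 17 to 10 without Δexon6/+ replicate 1, and 8 calls held in every leave-out. In insASAY/insASAY it went from 20 to 10 and 11 without wild-type replicates 1 and 2 and to 13 and 12 without insASAY/insASAY replicates 1 and 2, and 9 calls held in every leave-out. A genotype reduced to 1 library is then assumed to vary like the others. The same tallies were not made over all tested genes, so whether these members stand apart in this was not tested. The genes described next were named by a rule that took the smallest adjusted p, and the libraries on which a call hung are given with it.

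**Figure D3:**
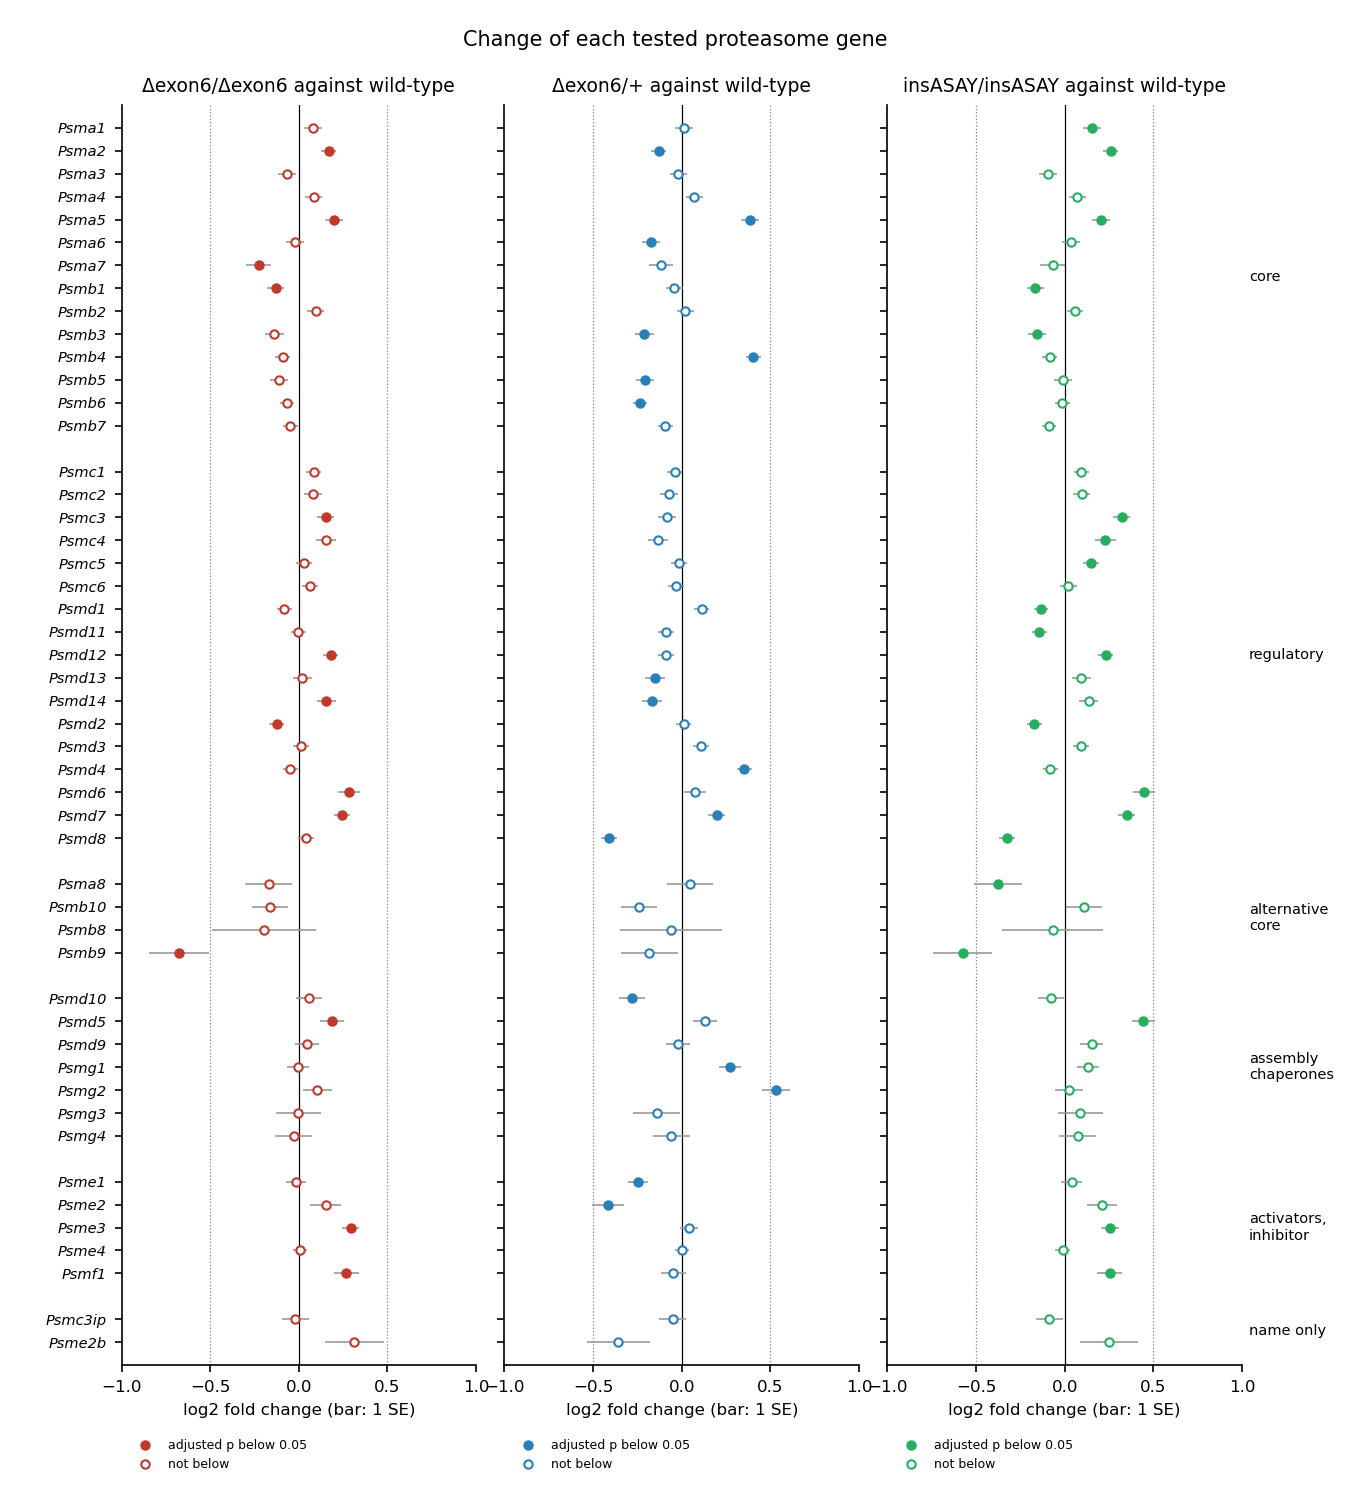
Log2 fold change against wild-type (horizontal axis, bars 1 SE) of the 49 tested members, grouped by role, in Δexon6/Δexon6 (red), Δexon6/+ (blue) and insASAY/insASAY (green); filled points have an adjusted p below 0.05 and dotted lines mark 0.5. Psmb9 at -0.68 and -0.58 and Psmg2 at 0.53 are the members past the dotted lines with a filled point.

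Among the alpha subunits of the core, Psma5 and Psma2 moved most often. Psma2 is an alpha ring subunit with 169 and 168 CPM in wild-type, 188 and 190 in Δexon6/Δexon6, 156 and 151 in Δexon6/+ and 199.5 and 204 in insASAY/insASAY. The 4 genotypes did not overlap, with the heterozygous libraries lowest and the insASAY/insASAY libraries highest. Psma2 rose by 0.26 ± 0.04 (SE) in insASAY/insASAY (adjusted p = 0.00034), a call that held in every leave-out, and by 0.16 with an offset for GC content and length. Its rise of 0.17 in Δexon6/Δexon6 (adjusted p = 0.0092) was not called without either wild-type library (0.062 and 0.069), and with that offset it was 0.07. Its fall in Δexon6/+ was -0.13 (adjusted p = 0.035) and was lost in 6 of 8 leave-outs, those of both wild-type, both insASAY/insASAY and both Δexon6/+ libraries, at up to 0.21, and in DESeq2 (0.11). Psma7, also an alpha subunit, stood at 214 and 182 CPM in wild-type, 171 and 167 in Δexon6/Δexon6, 173 and 191 in Δexon6/+ and 191 and 187 in insASAY/insASAY. The Δexon6/Δexon6 pair lay wholly below the wild-type range and the others overlapped it. Its fall of -0.23 there (adjusted p = 0.022) was -0.10 and not called without wild-type replicate 1, the library that was high, and -0.12 and not called with the offset.

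The beta subunits include the 3 that carry the active sites. Psmb6, with caspase-like activity, stood at 240 and 241 CPM in wild-type, 231 and 229 in Δexon6/Δexon6, 207 and 202 in Δexon6/+ and 236 and 241 in insASAY/insASAY. The heterozygous pair was the lowest of the 4, and the fall of -0.24 ± 0.04 against wild-type (adjusted p = 0.00087) held in every leave-out. Psmb5, with chymotrypsin-like activity, stood at 106 and 110 CPM in wild-type, 98.4 and 101 in Δexon6/Δexon6, 90.6 and 96.7 in Δexon6/+ and 106 and 109 in insASAY/insASAY. It too was lowest in the heterozygous libraries, by -0.21 ± 0.05 (adjusted p = 0.0074), but was not called there without wild-type replicate 2 (0.083) or Δexon6/+ replicate 1 (0.10), and was -0.11 with the GC and length offset. Psmb7, with trypsin-like activity, stood at 281 and 281 CPM in wild-type, 274 and 270 in Δexon6/Δexon6, 259 and 269 in Δexon6/+ and 262 and 266 in insASAY/insASAY. Its 3 differences against wild-type, -0.05, -0.09 and -0.09, did not pass. Psmb1, a beta subunit without an active site, was lower in Δexon6/Δexon6 (-0.13, adjusted p = 0.0495) and insASAY/insASAY (-0.17, adjusted p = 0.012), and the first call was lost in 7 of 8 leave-outs, at up to 0.25, and the second in 3, those of both wild-type libraries and insASAY/insASAY replicate 2, at up to 0.094. Across the 7 constitutive beta genes the median change was -0.09, -0.09 and -0.08 for Δexon6/Δexon6, Δexon6/+ and insASAY/insASAY in turn. Across the 7 alpha genes it was 0.08, -0.02 and 0.07, with all genes at -0.01, 0.00 and -0.01. The 2025 other genes in the abundance range of the constitutive subunits were at 0.009, -0.0003 and -0.064.

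The regulatory particle lid held the constitutive genes with the largest changes against wild-type, Psmd6 in both homozygous genotypes and Psmd8 in Δexon6/+. Psmd6 is a lid subunit and stood at 85.8 and 85.1 CPM in wild-type, 97.3 and 111 in Δexon6/Δexon6, 86.7 and 93.3 in Δexon6/+ and 117 and 116 in insASAY/insASAY. Both homozygous genotypes lay above both other genotypes. It rose by 0.28 ± 0.06 in Δexon6/Δexon6 (adjusted p = 0.0039) and 0.45 ± 0.06 in insASAY/insASAY (adjusted p = 8.8e-05), and both calls held in every leave-out. Psmd7, a lid subunit that pairs with the deubiquitinase Psmd14, stood at 119 and 115 CPM in wild-type, 135 and 143 in Δexon6/Δexon6, 136 and 133 in Δexon6/+ and 148 and 151 in insASAY/insASAY. All 6 mutant libraries lay above the wild-type pair. It rose by 0.24 (adjusted p = 0.0021), 0.20 (adjusted p = 0.0068) and 0.35 (adjusted p = 7.9e-05) in that order of genotypes. Psmd7 was 1 of the 3 members called against wild-type in every genotype, with Psma5 and Psma2, and its call in Δexon6/+ was lost without wild-type replicate 2 (0.082) or Δexon6/+ replicate 1 (0.071).

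Psmd8, another lid subunit, went the other way. It stood at 308 and 310 CPM in wild-type, 309 and 327 in Δexon6/Δexon6, 231 and 234 in Δexon6/+ and 242 and 252 in insASAY/insASAY. Wild-type and Δexon6/Δexon6 overlapped, and the other 2 genotypes lay well below them. Psmd8 fell by 0.41 ± 0.05 on the log2 scale in Δexon6/+ (adjusted p = 1.9e-05) and by 0.33 ± 0.04 in insASAY/insASAY (adjusted p = 9e-05), in every leave-out as well. Psmd12, a lid scaffold subunit, stood at 131 and 134 CPM in wild-type, 152 and 149 in Δexon6/Δexon6, 124 and 126 in Δexon6/+ and 156 and 156 in insASAY/insASAY. Its rise of 0.18 in Δexon6/Δexon6 (adjusted p = 0.0068) was lost without wild-type replicate 1 (0.073), and its rise of 0.23 in insASAY/insASAY (adjusted p = 0.0008) held in every leave-out. Psmd11, a further lid subunit, was -0.14 in insASAY/insASAY (adjusted p = 0.016), lost without wild-type replicate 1 or 2 or insASAY/insASAY replicate 1 at up to 0.15, and -0.24 with the GC and length offset.

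In the base, Psmc3, one of the ATPases, stood at 172 and 173 CPM in wild-type, 184 and 199 in Δexon6/Δexon6, 162 and 163 in Δexon6/+ and 219 and 212 in insASAY/insASAY. None of the 4 pairs overlapped. The rise of 0.32 ± 0.05 in insASAY/insASAY (adjusted p = 0.00016) held in every leave-out, and that of 0.15 in Δexon6/Δexon6 (adjusted p = 0.026) was lost without wild-type replicate 1 or 2 or Δexon6/Δexon6 replicate 2 at up to 0.13. Psmd2, the large base scaffold and the most abundant regulatory transcript, stood at 616 and 613 CPM in wild-type, 575 and 553 in Δexon6/Δexon6, 609 and 630 in Δexon6/+ and 547 and 545 in insASAY/insASAY. Both homozygous genotypes lay below the wild-type and heterozygous libraries. It fell by 0.17 ± 0.04 in insASAY/insASAY (adjusted p = 0.0046), held in every leave-out, and its -0.12 in Δexon6/Δexon6 (adjusted p = 0.034) was lost in 5 leave-outs at up to 0.14, those of both wild-type and both insASAY/insASAY libraries and Δexon6/Δexon6 replicate 2, and in DESeq2 (0.068). Of the 9 base genes, 1 rose and 1 fell in Δexon6/Δexon6, 1 rose in Δexon6/+, and 3 rose and 2 fell in insASAY/insASAY. Of the 8 lid genes, 4 rose in Δexon6/Δexon6, 1 rose and 3 fell in Δexon6/+, and 3 rose and 2 fell in insASAY/insASAY. The shares of all genes that rose and fell were 18.3% and 17.1%, 15.4% and 16.2%, and 23.2% and 24.1% in turn.

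In Δexon6/+ the constitutive genes that rose were mostly those of chromosome 3. Psmb4, a beta subunit (chr3:94884093-94886961, mm10), stood at 261 and 258 CPM in wild-type and 335 and 351 in Δexon6/+, a rise of 0.40 ± 0.04 (adjusted p = 1.5e-05). Psmd4, the ubiquitin receptor of the base (chr3:95032694-95042614), went from 185 and 186 to 236 and 237 CPM, a rise of 0.35 ± 0.04 (adjusted p = 4e-05). Psma5, an alpha subunit (chr3:108256926-108279974), went from 145 and 140.5 to 188 and 184 CPM, a rise of 0.38 ± 0.05 (adjusted p = 9e-05). No library of Δexon6/+ overlapped wild-type for these 3 genes, and the calls held in every leave-out.

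The rest of chromosome 3 moved in the same direction in that genotype. Its 848 tested genes had a median of 0.32 in Δexon6/+ against wild-type, with 372 called higher and 105 lower, and medians of -0.01 in both other mutant genotypes. Within 1 Mb, the median of the other tested genes in Δexon6/+ was 0.29 around Psmb4 (56 genes, 21 called higher and 6 lower), 0.32 around Psmd4 (62 genes, 26 and 6) and 0.50 around Psma5 (44 genes, 29 and 1). The windows around Psmb4 and Psmd4 overlap and hold mostly the same genes. The part of the chromosome-wide shift in the 3 subunit changes was not tested. Without these 3 genes, 1 of the 28 other constitutive genes rose in Δexon6/+ and 8 fell, with a median of -0.08. Of the tested genes off chromosome 3, 13.9% rose and 16.4% fell, with a median of -0.01. Psma5 was also higher in Δexon6/Δexon6 (156 and 171 CPM, 0.20, adjusted p = 0.0093) and in insASAY/insASAY (165 and 164 CPM, 0.21, adjusted p = 0.0048), where chromosome 3 as a whole did not stand apart. Both of these calls were lost without wild-type replicate 2 (0.087 and 0.057).

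**Figure D4:**
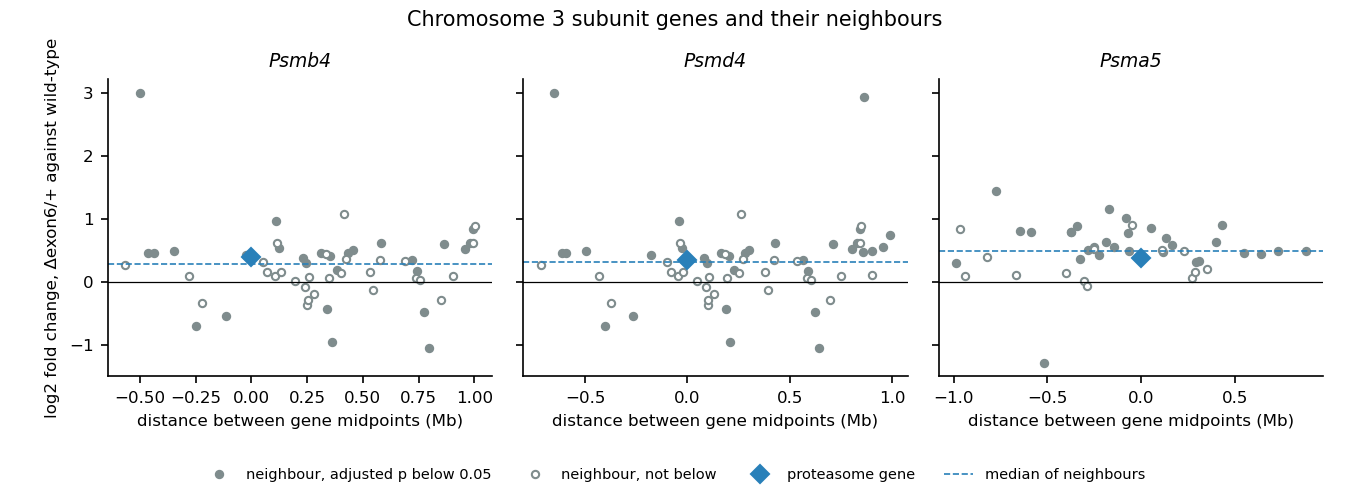
Log2 fold change in Δexon6/+ against wild-type (vertical axis) of Psmb4, Psmd4 and Psma5 (diamonds at 0) and of the other tested genes within 1 Mb, by distance between gene midpoints in Mb; filled circles have an adjusted p below 0.05 and the dashed line is the neighbours' median. The 3 subunit genes, at 0.40, 0.35 and 0.38, lie near the medians of their neighbours at 0.29, 0.32 and 0.50. Psmb4 and Psmd4 have mostly the same neighbours.

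The alternative core subunits were low. Per kb of transcript, the inducible beta subunits of the immunoproteasome stood in wild-type at 0.529 ± 0.0045 (SD, n = 2) for Psmb8, 2.94 ± 0.032 for Psmb9 and 11.1 ± 0.69 for Psmb10, while the constitutive subunits that they replace, Psmb5, Psmb6 and Psmb7, stood at 120, 302 and 242 CPM per kb. Psma8, the germline alpha subunit, stood at 10.2 CPM per kb. Psmb11, the thymus form, had 0 reads in 4 libraries and at most 2 reads in the others and was not tested.

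Psmb9 had the largest change against wild-type of any member. It stood at 4.01 and 3.94 CPM in wild-type, 2.67 and 2.31 in Δexon6/Δexon6, 3.26 and 3.76 in Δexon6/+ and 2.66 and 2.67 in insASAY/insASAY, from 63 to 111 reads per library. No mutant library reached the wild-type pair. It fell by 0.68 ± 0.17 in Δexon6/Δexon6 (adjusted p = 0.0084) and by 0.58 ± 0.17 in insASAY/insASAY (adjusted p = 0.013), and its -0.18 in Δexon6/+ did not pass (adjusted p = 0.43). Neither fall passed in DESeq2 (adjusted p = 0.057 and 0.088). The first was lost without wild-type replicate 1 (0.052), and the second without either wild-type or either insASAY/insASAY library (0.051 to 0.071). Psmb8 and Psmb10 did not pass against wild-type: Psmb8 differed by -0.20 ± 0.29, -0.06 ± 0.29 and -0.07 ± 0.28, and Psmb10 by -0.16 ± 0.10, -0.24 ± 0.10 and 0.11 ± 0.10 in Δexon6/Δexon6, Δexon6/+ and insASAY/insASAY. Psma8 fell by 0.38 ± 0.13 in insASAY/insASAY (adjusted p = 0.034), from 17.6 and 16.9 to 13.8 and 12.7 CPM, and was not called without either wild-type or either insASAY/insASAY library (0.077 to 0.17).

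Tap1 and Tap2, which lie beside Psmb9 in the major histocompatibility region, fell in the same genotypes as Psmb9. Psmb9 (chr17:34181987-34187764, minus strand) overlaps the start of Tap1, a peptide transporter gene on the plus strand, and in RefSeq their starts lie 226 bases apart. Tap1 stood at 58.5 and 57.4 CPM in wild-type, 41.4 and 27.7 in Δexon6/Δexon6, 52.8 and 59.8 in Δexon6/+ and 28.6 and 31.9 in insASAY/insASAY. It fell by 0.75 ± 0.13 in Δexon6/Δexon6 (adjusted p = 0.0011) and 0.94 ± 0.13 in insASAY/insASAY (adjusted p = 0.00011), and Tap2, its partner, fell by 1.12 and 0.74 (adjusted p = 0.00015 and 0.00065). In Δexon6/+ both were at -0.04 (adjusted p = 0.84 for each). Over Psmb9, 57 to 170 reads per library lay on the other strand, that of Tap1, beside 63 to 111 on its own, where the median share on the other strand over the tested members was 0.854%. The part of Tap1 reads in the Psmb9 counts was not tested. Of the 9 genes in the list of interferon and antigen presentation genes, 2 rose and 3 fell in Δexon6/Δexon6, 1 and 3 in Δexon6/+ and 1 and 4 in insASAY/insASAY, where 35.4%, 31.6% and 47.3% of all genes were called in either direction. Other listed genes of the region did not share the Psmb9 pattern. Tapbp was -0.19, -1.34 and -0.73 in that order of genotypes, H2-K1 was 0.06, -0.36 and -0.22, and H2-D1 was 0.12, -0.11 and -0.06.

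**Figure D5:**
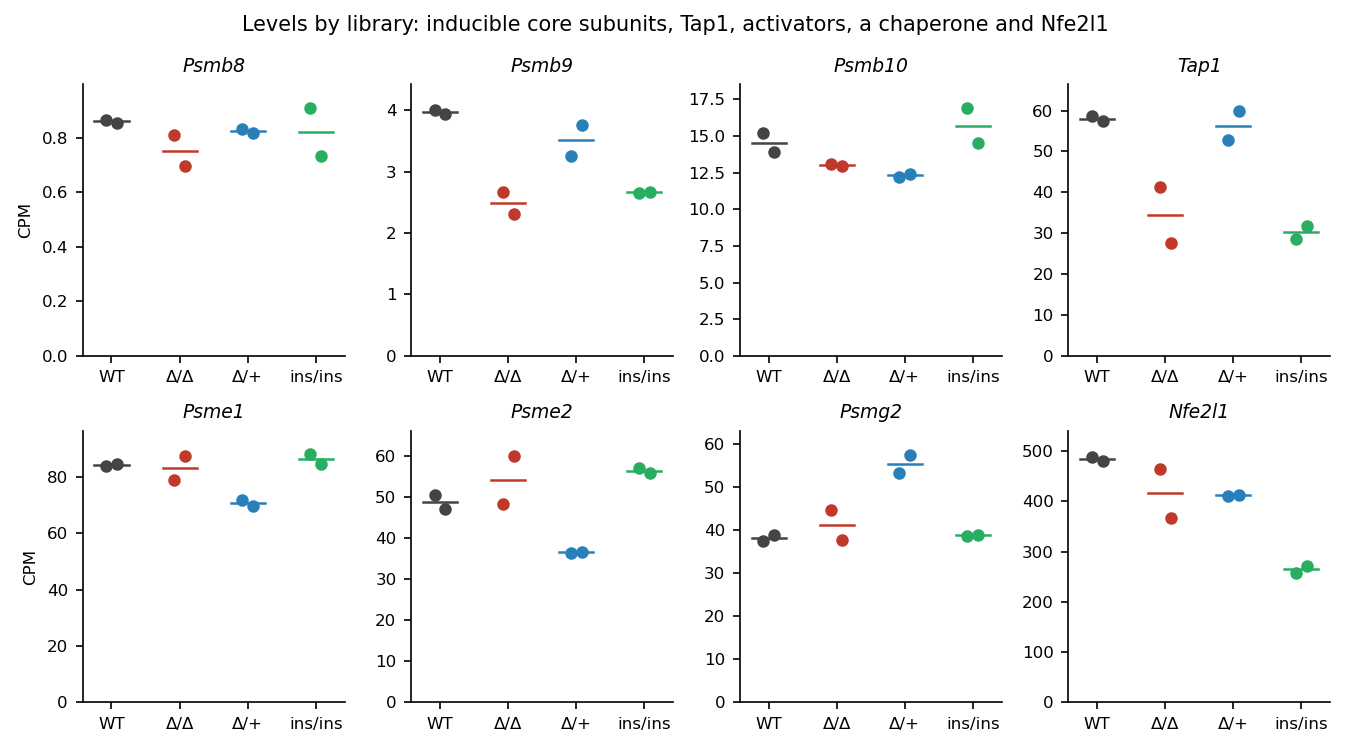
CPM (vertical axis, from 0) in the 2 libraries of each genotype (points, with their mean as a bar; WT wild-type, Δ/Δ Δexon6/Δexon6, Δ/+ Δexon6/+, ins/ins insASAY/insASAY) for the inducible beta subunits, Tap1, Psme1, Psme2, Psmg2 and Nfe2l1. Psmb9 and Tap1 are low in both homozygous genotypes, Psme1 and Psme2 low and Psmg2 high in Δexon6/+, and Nfe2l1 low in insASAY/insASAY.

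Of the 5 activator and inhibitor genes, 2 rose in Δexon6/Δexon6, 2 fell in Δexon6/+ and 2 rose in insASAY/insASAY. Of all tested genes, 18.3% rose, 16.2% fell and 23.2% rose in the same comparisons. Psme2, a subunit of the interferon-inducible activator ring that caps the core, stood at 50.6 and 47.1 CPM in wild-type, 48.3 and 60.1 in Δexon6/Δexon6, 36.5 and 36.7 in Δexon6/+ and 57.1 and 55.9 in insASAY/insASAY. The heterozygous pair lay below all 6 other libraries. Psme2 fell by 0.42 ± 0.09 there against wild-type (adjusted p = 0.0029), and was -0.57 against Δexon6/Δexon6 (adjusted p = 0.00018), while insASAY/insASAY against Δexon6/+ was 0.63 (adjusted p = 6.5e-05). Psme1, the other subunit of that ring, encoded near it on chromosome 14, stood at 83.9 and 84.5 CPM in wild-type and 72.0 and 69.8 in Δexon6/+, a fall of 0.25 ± 0.06 (adjusted p = 0.0055) that was not called without Δexon6/+ replicate 2 (0.056) or with the GC and length offset (-0.14). Psme2b, at 2.66 to 4.73 CPM over the 8 libraries, resembles Psme2 in name and may share reads with it. Its differences of -0.67 in Δexon6/+ against Δexon6/Δexon6 (adjusted p = 0.0065) and 0.61 in insASAY/insASAY against Δexon6/+ (adjusted p = 0.0099) are therefore uncertain. The first was lost without Δexon6/+ replicate 2, and the second without that library, without insASAY/insASAY replicate 2 and in DESeq2.

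Psme3, the nuclear activator, stood at 163 and 173 CPM in wild-type, 199 and 213 in Δexon6/Δexon6, 175 and 170 in Δexon6/+ and 201 and 201 in insASAY/insASAY. Both homozygous genotypes lay above the others. It rose by 0.29 ± 0.05 in Δexon6/Δexon6 (adjusted p = 0.0009) and 0.26 ± 0.05 in insASAY/insASAY (adjusted p = 0.001), in every leave-out. Psme4, the largest activator, was level at 440 to 451 CPM in all 8 libraries, with differences of 0.01, 0.00 and -0.01 against wild-type. Psmf1, the inhibitor of the core, stood at 29.4 and 32.3 CPM in wild-type, 36.3 and 37.9 in Δexon6/Δexon6, 29.8 and 29.8 in Δexon6/+ and 36.5 and 37.0 in insASAY/insASAY. Like Psme3 it was higher in both homozygous genotypes, by 0.27 (adjusted p = 0.0098) and 0.25 (adjusted p = 0.0089). Both calls were lost without wild-type replicate 1 (0.12 for each), and the second also without insASAY/insASAY replicate 2 (0.067).

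Among the assembly chaperones, Psmg2 was the member past both an adjusted p of 0.05 and a log2 change of 0.5 in Δexon6/+. Psmg2 helps to assemble the alpha ring, and stood at 37.6 and 38.9 CPM in wild-type, 44.6 and 37.8 in Δexon6/Δexon6, 53.2 and 57.4 in Δexon6/+ and 38.7 and 39.0 in insASAY/insASAY. The heterozygous pair lay above all 6 others, by 0.53 ± 0.08 against wild-type (adjusted p = 0.00021), and insASAY/insASAY was -0.51 against it (adjusted p = 0.00013). Its size was 0.48 without Δexon6/+ replicate 2. Psmg1, its partner in that step, stood at 47.9 and 47.6 CPM in wild-type and 57.0 and 58.3 in Δexon6/+, a rise of 0.27 ± 0.06 (adjusted p = 0.0048), which held in every leave-out, as did that of Psmg2. Psmd5, a chaperone of the regulatory base, stood at 66.6 and 68.8 CPM in wild-type, 71.1 and 83.0 in Δexon6/Δexon6, 73.6 and 74.9 in Δexon6/+ and 90.1 and 94.0 in insASAY/insASAY. The insASAY/insASAY pair was highest, a rise of 0.44 ± 0.07 (adjusted p = 0.00016) in every leave-out, while its 0.19 in Δexon6/Δexon6 (adjusted p = 0.045) was lost in 7 of 8 leave-outs, all but that of Δexon6/Δexon6 replicate 1, at up to 0.39. The 3 other chaperone genes Psmd9, Psmg3 and Psmg4 did not pass against wild-type, and Psmd10 was -0.28 in Δexon6/+ (adjusted p = 0.011), lost without wild-type replicate 1 or Δexon6/+ replicate 1 at up to 0.11.

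Between mutant genotypes calls were most frequent in the comparisons with Δexon6/+, for the members as for all tested genes. Of all tested genes, 47.1% were called in either direction in Δexon6/+ against Δexon6/Δexon6. The share was 52.9% in insASAY/insASAY against Δexon6/+ and 15.4% between the homozygous genotypes. In Δexon6/+ against Δexon6/Δexon6, 8 members were higher and 18 lower, where 22.9% and 24.2% of all genes were. In insASAY/insASAY against Δexon6/+, 24 were higher and 8 lower, against 26.8% and 26.1% (52.9% in either direction), and 20 in all were called without Δexon6/+ replicate 1. In insASAY/insASAY against Δexon6/Δexon6, 2 were higher and 2 lower, against 5.6% and 9.8%, and 12 were called without Δexon6/Δexon6 replicate 2 and 1 or 2 without any 1 library of the other genotypes. None was past the 0.5 threshold there, where 5.16% of all genes were. The first of these counts includes Psme2 and Psme2b past the 0.5 threshold and the second Psme2, Psme2b and Psmg2, where 22.2% and 27.5% of all genes were past it.

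Of the genes around the proteasome, Nfe2l1 stood out by size. This transcription factor of the subunit genes stood at 489 and 481 CPM in wild-type, 465 and 367 in Δexon6/Δexon6, 410 and 413 in Δexon6/+ and 258 and 272 in insASAY/insASAY. Each mutant library was lower than the wild-type pair, and the insASAY/insASAY pair was lowest. The fall in insASAY/insASAY was 0.87 ± 0.08 (adjusted p = 5.5e-06), in every leave-out, beside falls of 0.22 in Δexon6/Δexon6 (adjusted p = 0.044) and 0.24 in Δexon6/+ (adjusted p = 0.038). These latter 2 calls were lost in 7 and 6 of 8 leave-outs, and the first was -0.06 without Δexon6/Δexon6 replicate 2. In the same insASAY/insASAY libraries the 31 constitutive genes had a median change of 0.06. Ddi2, the protease that activates the Nfe2l1 protein, rose by 0.45 there (adjusted p = 0.0011). Pomp, the core maturation factor, was 0.17 in Δexon6/Δexon6 (adjusted p = 0.012) and 0.14 in insASAY/insASAY (adjusted p = 0.021). Adrm1, a ubiquitin receptor, was 0.15 in insASAY/insASAY (adjusted p = 0.039), and Sem1, a small lid subunit, did not pass. Leaving out wild-type replicate 1 or 2 ended each of these 3 calls. Of the 23 partner genes tested, 8 rose and 2 fell in Δexon6/Δexon6, 7 and 3 in Δexon6/+ and 6 and 6 in insASAY/insASAY. Of all genes, 35.4%, 31.6% and 47.3% were called in either direction. Ubqln4, among the partners that rose in Δexon6/+ (0.56), lies on chromosome 3. Of 6 genes for ubiquitin and its activating enzymes, 3 fell in Δexon6/Δexon6, 1 rose and 2 fell in Δexon6/+ and 4 fell in insASAY/insASAY, where 17.1%, 16.2% and 24.1% of all genes fell.

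The promoters were searched for the letters that Nfe2l1 and other factors are known to bind. RefSeq gives promoter windows, 250 bases before to 50 bases after the start on GRCm38.p6, for 42 of the 50 members, 25 of them among the 31 constitutive genes. The antioxidant response element core, TGACNNNGC on either strand, was in windows of 6 of the 42 genes, or 13.3% of their windows, against 12.4% of all 32851 windows and 14.1% of windows of tested genes. Of the 4 constitutive genes with it, Psmb5, Psmb6, Psmc6 and Psmd12, the changes in insASAY/insASAY were -0.01, -0.01, 0.02 and 0.23, and Psmd12 alone passed. The matches with 8 bases on each side lying inside the window and before the start are shown with those bases and the matched letters in capitals, for Psmb5 (chr14:54618026-54618050, minus strand), Psmc6 (chr14:45329589-45329613, plus strand) and Psmd9 (chr5:123228151-123228175, plus strand).
Psmb5: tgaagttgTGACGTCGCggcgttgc
Psmc6: agccagtaGCTAAGTCAggcattgc
Psmd9: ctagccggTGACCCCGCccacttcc

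An ETS core, CCGGAAG on either strand, the site of the ETS family of transcription factors, and the CCAAT box were each in windows of 10 of the 25 constitutive genes. The ETS core was in 40.7% of their windows, against 8.86% of all windows and 15.9% of windows of tested genes. Other motifs searched were in 37.0% of the constitutive windows for CCAAT (37.4% of all windows and 37.5% of those of tested genes), 11.1% for CATGCGC (3.91% and 6.48%), 11.1% for TATAAA (13.6% and 7.20%), 7.41% for AAGATGGCG (1.40% and 2.65%) and 3.70% for ACTACAA (3.24% and 3.72%). Of the 10 constitutive genes with the ETS core, 9 are regulatory particle genes and 1, Psma6, is a core gene. They include members that rose and members that did not: in insASAY/insASAY 2 of the 10 rose and 2 fell, and of the 15 genes with a window but no ETS core 5 rose and 3 fell, where 23.2% of all genes rose and 24.1% fell. The matches below, 1 for each gene where the flanking bases lie before a start (Psmc2 has a second window with another), show the matched letters in capitals, as CCGGAAG or its reverse complement. They belong to Psmc1 (chr12:100110166-100110188), Psmc2 (chr5:21786715-21786737), Psmc6 (chr14:45329716-45329738), Psmd2 (chr16:20651618-20651640), Psmd4 (chr3:95042725-95042747), Psmd6 (chr14:14120976-14120998), Psmd12 (chr11:107479503-107479525) and Psma6 (chr12:55398685-55398707), with Psmd4 and Psmd6 on the minus strand and the others on the plus strand.
Psmc1: tggatgcaCTTCCGGcggtggcg
Psmc2: cggagctaCTTCCGGtggggaag
Psmc6: cgggccagCCGGAAGgggcggag
Psmd2: gcagggcgCTTCCGGtctggagg
Psmd4: cagctgttCCGGAAGctgctgcg
Psmd6: agacgcgaCCGGAAGtcagactg
Psmd12: gcgggcgaCTTCCGGtgcgagtg
Psma6: gccaccacCCGGAAGcccgcgga
Psmd6, the constitutive gene with the largest rise in insASAY/insASAY, and Psmd2, which fell there, both hold the core within 50 bases before their start.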

How the data were processed

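The deposited files hold the authors' raw counts per gene from STAR 2.7.2a on mm10, per the labels and file layout. The authors' annotation release is not given in the sources used here. The library kit was directional, and the column of reads on the gene's strand was used (4.11% to 4.78% of reads fell in the opposite column). Gene identifiers were matched to GENCODE M21 without version. Genes with at least 10 counts in enough libraries (filterByExpr) were tested with edgeR 4.0.16 (R 4.3.3; TMM scaling, quasi-likelihood F-test, all 4 genotypes in 1 fit, no block), which retained 17049 genes, and p-values were adjusted by the Benjamini-Hochberg method. Methods were tested on simulated data. Depth limits low genes such as Psmb8 and Psmb9. Alternatives were DESeq2 1.42.0, other scaling, other filters, counts without strand, GC and length offsets, 2 groups per fit, a replicate block, no chromosome 3, and each library left out. Levels per length used the principal transcript, and coding length was added after seeing the data.

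The members, gene lists and tests were chosen with earlier results of these data known. Named were the active-site, inducible and tissue-specific beta and alpha genes, chromosome 3 members, members placed in no proteasome group, and Tbxt. Also named were the partners Nfe2l1, Pomp, Adrm1 and Sem1. So were up to 5 rising and 5 falling members per comparison with wild-type by smallest adjusted p. Every member past both thresholds and the highest and lowest subunit of each particle were named as well. Psma6, Psmc1, Psmc2, Psmc6, Psme4, Psmf1, Psmd9, Psmd14, Psmd10, Psmg3, Psmg4 and list genes other than these partners were named after their values were seen.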

Additional observations from a re-analysis of the deposited data

Results flagged for a closer look

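For 2 constitutive subunit genes the changes against wild-type pointed in opposite directions in 2 mutant genotypes. The difference between those genotypes passed edgeR's quasi-likelihood test with Benjamini-Hochberg adjustment. Such genes were not counted over all tested genes, so the 2 have no background beside them. Of all tested genes, 47.1% were called in Δexon6/+ against Δexon6/Δexon6 and 52.9% in insASAY/insASAY against Δexon6/+. Psmd14, the lid deubiquitinase, stood at 138 and 134 CPM in wild-type, 146 and 157 in Δexon6/Δexon6 and 117 and 125 in Δexon6/+. It was 0.15 in Δexon6/Δexon6 and -0.17 in Δexon6/+ against wild-type, and Δexon6/+ against Δexon6/Δexon6 was -0.323 ± 0.05 (SE, adjusted p = 0.00034). Psma2 was 0.17 in Δexon6/Δexon6, -0.13 in Δexon6/+ and 0.26 in insASAY/insASAY. As given above, its calls in Δexon6/Δexon6 and Δexon6/+ hung on single libraries, and DESeq2 did not call the fall in Δexon6/+. The Psma2 difference was -0.299 ± 0.04 for Δexon6/+ against Δexon6/Δexon6 (adjusted p = 0.00011). It was 0.390 ± 0.04 for insASAY/insASAY against Δexon6/+ (adjusted p = 9.7e-06). The differences between mutant genotypes held in every leave-out of a library, while the calls of Psmd14 against wild-type were lost in 7 leave-outs for Δexon6/Δexon6 and 3 for Δexon6/+, those of both wild-type libraries among them.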

How the results depend on the processing

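No result changed direction while called. The counts of called members below have no count over all tested genes beside them. Leaving out 1 library at a time gave 4 to 20 called members in Δexon6/Δexon6 against wild-type, 10 to 23 in Δexon6/+, 10 to 28 in insASAY/insASAY, 19 to 29 in Δexon6/+ against Δexon6/Δexon6, 1 to 12 in insASAY/insASAY against Δexon6/Δexon6 and 20 to 35 in insASAY/insASAY against Δexon6/+. Members past both thresholds then numbered 0 to 1 in each comparison with wild-type, 1 to 4 in Δexon6/+ against Δexon6/Δexon6, 2 to 4 in insASAY/insASAY against Δexon6/+ and 0 in the last. Fitting only the 2 groups compared gave 8 called members in Δexon6/Δexon6 and 31 in insASAY/insASAY against wild-type, and 1 between these 2 genotypes. DESeq2 put 0 members past both thresholds in both homozygous genotypes against wild-type. GC and length offsets gave 2 called members in insASAY/insASAY against Δexon6/Δexon6 and 6 past both thresholds in insASAY/insASAY against Δexon6/+. The cause was not tested. The next counts cover the tested members picked by the naming rule, partly by smallest adjusted p, and not all members. Over all alternatives 50 of their values became called and 145 were no longer called. A further 2570 kept their side, and 73 that were never called changed sign. The regulatory span per length rose to 3.99-fold and the core span fell to 2.48-fold with coding length.

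Replicate numbers are shared between genotypes without a stated pairing, and deviations of same-numbered libraries correlated at -0.01 to 0.05. With a replicate block, 14, 17 and 20 members were called in Δexon6/Δexon6, Δexon6/+ and insASAY/insASAY against wild-type, 26 and 30 in Δexon6/+ against Δexon6/Δexon6 and insASAY/insASAY against Δexon6/+, and 3 between the homozygous genotypes.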
